A study of Homo sapiens with 6 samples.

Results

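This report concerns 10 genes of the latent TGF-beta system in HMC3 cells, an immortalized human microglial cell line, after irradiation. The members were taken by gene name, as all transcript rows of LTBP1, LTBP2, LTBP3, LTBP4, FBN1, FBN2, TGFB1, TGFB2, TGFBR2 and TGFBI in the deposited count table. They hold 82 of its 153848 transcript rows and 10 of its 31768 genes. They comprise the latent TGF-beta binding proteins and the fibrillins, the ligands TGFB1 and TGFB2 with the receptor TGFBR2, and the secreted protein TGFBI. RNA was taken 24 h after exposure from 3 independent cultures irradiated with 15 Gy of X-rays and from 3 independent control cultures at 0 Gy, and the polyadenylated fraction was sequenced by Oxford Nanopore long reads after PCR amplification of its cDNA. All 6 cultures are of the same cell line, and the comparison is between these 2 groups at a single dose and time.

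TGF-beta is secreted as an inactive complex, in which the mature cytokine stays wrapped in its own propeptide. In most cells a latent TGF-beta binding protein is linked to that propeptide by disulfide bonds and tethers the complex to fibrillin microfibrils in the extracellular matrix, from which integrins, proteases or thrombospondin can release it. The free ligand binds TGFBR2, a kinase that phosphorylates TGFBR1, and TGFBR1 in turn phosphorylates SMAD2 and SMAD3. In brain, TGF-beta signalling is known for its part in maintaining the homeostatic identity of microglia.

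The libraries held 6292049 to 6909420 counts in irradiated cultures and 4870897 to 9082409 counts in control cultures. Levels are given as CPM, counts per 1000000 of library sizes scaled by TMM factors, which were 1.09 to 1.24 in irradiated and 0.793 to 0.928 in control libraries. Irradiated over control changes are given as log2 fold changes of edgeR's quasi-likelihood test with their SE, and a gene is said to rise or fall where its p-value, adjusted by the Benjamini-Hochberg method over all 11118 genes tested, was under 0.05. A gene that also passed an absolute log2 fold change of 1 is called differentially expressed. CPM is a share of the RNA read, so fewer expressing cells and less RNA per cell cannot be told apart. Across all genes the change moved with transcript length, with a median log2 fold change of -0.37 in genes up to 1521 bases and 0.33 in those over 4445 bases, the lower and upper ends of a split into 5 equal classes, and most members are long. Of 16 microglia markers, 8 had no counts in any library, among them CX3CR1, P2RY12, TMEM119, ITGAM and TYROBP. CD68, a lysosomal protein of phagocytes, had 31.2, 33.5 and 35.7 CPM in irradiated cultures, against 28.3, 34.6 and 22.7 CPM in control cultures (log2 fold change 0.23, adjusted p = 0.376). Of 14 fibroblast and pericyte markers, 8 were tested, of which 4 rose and 2 fell, where 11.6% of all genes tested rose and 14.1% fell. COL3A1 and LUM had no counts, and the list summed to 367 to 445 CPM in irradiated and 378 to 417 CPM in control cultures. ACTA2 and COL1A2 rose and THY1 fell among them, by log2 fold changes of 1.80, 1.35 and -0.63. The part of these differences in the results below was not tested.

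Of the 10 members, 9 passed the filter on low counts, and 3 of these 9 rose, namely LTBP3, LTBP1 and TGFBR2. For comparison, 11.6% of all genes tested rose. None of the members fell, against 14.1% of all genes tested. None had a negative fold change at an unadjusted p under 0.05 in the main edgeR test or in DESeq2. With an offset for gene length in edgeR, TGFB2 was at -0.70 (unadjusted p = 0.0327, adjusted p = 0.112). The 2 differentially expressed members were LTBP1 and LTBP3, against 4.0% of all genes that were differentially expressed and higher. The CPM of the 2 groups did not overlap for 4 members, with irradiated cultures higher for LTBP1, LTBP2, LTBP3 and TGFBR2 (21.5% of all genes), and for 0 members with irradiated cultures lower (21.3% of all genes). Of the 9 members tested, 8 had a positive log2 fold change, and the median of the 9 was 0.53 against 0.08 over all genes tested. Most members are long, and genes over 4445 bases had a median of 0.33, so 0.08 is not a like background. With the gene length offset FBN1 (-0.06) and FBN2 (-0.13) were negative too, and 2 members in place of 3 were called higher.

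**Figure D1:**
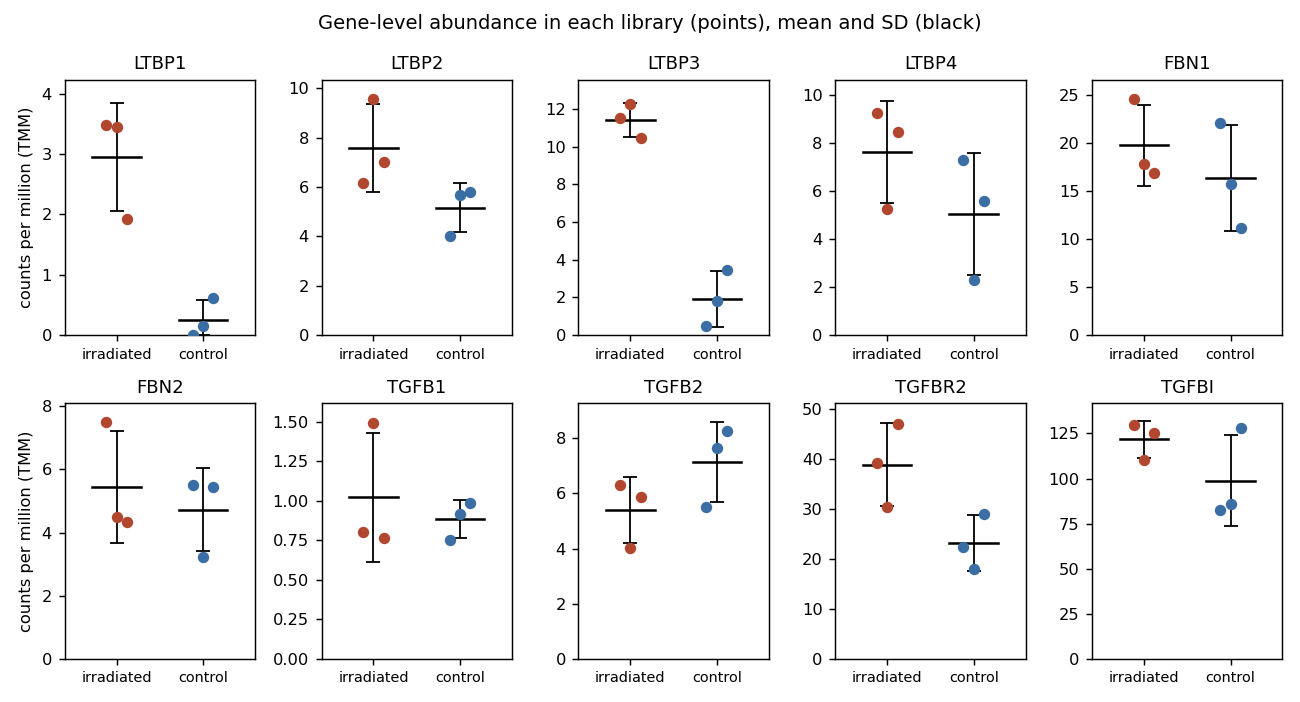
CPM of each member in the 3 irradiated libraries (left, red) and the 3 control libraries (right, blue), with the mean and SD in black and a separate linear axis from 0 for each gene (SD bars are stopped at 0). LTBP1, LTBP2, LTBP3 and TGFBR2 have every irradiated point above every control point, and the other 6 genes overlap.

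LTBP3, which tethers the latent complex to the matrix and is needed for normal bone and tooth development, showed the smallest adjusted p of the members. It had 11.5, 12.3 and 10.5 CPM in irradiated cultures 1, 2 and 3, against 0.502, 1.84 and 3.46 CPM in control cultures 1, 2 and 3. The irradiated cultures lay close together, the controls spread several-fold, and the lowest irradiated culture stood well above the highest control. The underlying counts were 86, 86 and 88 in irradiated and 2, 12 and 32 in control libraries. LTBP3 rose by a log2 fold change of 2.41 ± 0.40 (SE, n = 3 each, adjusted p = 0.000904), which is 5.33-fold. Its call held in all 15 alternative analyses, with log2 fold changes from 2.07 to 3.10, the highest of them without control culture 3. The gene lies on the minus strand of chromosome 11 (GRCh38 chr11:65538805-65558930) and overlaps no other annotated gene in GENCODE 29.

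LTBP1, a carrier of latent TGF-beta, was lower in level and measured with few counts. It had 3.48, 3.44 and 1.92 CPM in irradiated cultures, against 0, 0.153 and 0.618 CPM in control cultures. These values stand for 26, 23 and 15 counts in irradiated and 0, 1 and 5 counts in control libraries, where the absence of counts in control culture 1 allows up to 0.753 CPM (3 counts). Every irradiated culture was above every control culture, and by its sum over rows also above that limit. In irradiated culture 3 each LTBP1 row held 3 counts, so its 15 counts may not be separate reads. LTBP1 rose by a log2 fold change of 3.18 ± 0.75 (SE, n = 3 each, adjusted p = 0.00636). Its fold change ranked 12 among all genes tested. Pooled over libraries, 64 irradiated and 6 control counts gave a ratio of 9.03 after scaling, with an exact 95% interval of 3.93 to 25.5 that covers counting error only. The interval takes each count as a separate read, which a sum over rows with identical counts may not hold. The call held in all 15 alternatives, with log2 fold changes from 2.81 to 4.69, and the highest value was again that without control culture 3, which holds 5 of the 6 control counts. The gene spans chr2:32946972-33399509 on the plus strand (GRCh38) and overlaps 4 other annotated genes, 0 of them protein-coding.

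LTBP1 has a long form and a short form, which start from separate promoters. The long form carries an additional N-terminal stretch that is known for matrix binding. Of the 5 LTBP1 rows in the table, 3 held identical counts. The long form ENST00000404816 (34 exons) and the short forms ENST00000418533 (29 exons) and ENST00000404525 (30 exons) each held 6, 5 and 3 counts in irradiated and 0, 0 and 1 counts in control libraries. The other rows were ENST00000402934, with 4, 4 and 3 counts in irradiated and 0, 1 and 1 in control libraries, and ENST00000407925, with 4, 4 and 3 counts in irradiated and 0, 0 and 1 in control libraries. With identical counts in a long and a short form, the values do not say from which promoter the additional LTBP1 RNA came. The 250 bases before 2 of the 3 RefSeq starts of LTBP1 are shown, with those before 1 start each of LTBP3 and TGFBR2, since these are the 3 members that rose. Capitals mark CAGAC, or its reverse complement (GTCTG on the printed strand), the core of the sequence bound by SMAD3 and SMAD4. Sequences are from RefSeq (GRCh38.p14), written 5′ to 3′ on the gene's own strand, and the LTBP3 window holds 244 bases because exon bases at its far end were left off, and it lies between exons of the longer row ENST00000530866.
LTBP1 long form, chr2:32946703-32946952, plus strand: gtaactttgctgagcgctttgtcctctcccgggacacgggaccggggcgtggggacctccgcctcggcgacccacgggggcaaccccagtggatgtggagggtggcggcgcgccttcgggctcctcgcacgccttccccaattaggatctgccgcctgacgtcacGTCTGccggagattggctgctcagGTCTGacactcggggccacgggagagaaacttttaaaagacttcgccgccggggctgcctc
LTBP1 short form, chr2:33134119-33134368, plus strand: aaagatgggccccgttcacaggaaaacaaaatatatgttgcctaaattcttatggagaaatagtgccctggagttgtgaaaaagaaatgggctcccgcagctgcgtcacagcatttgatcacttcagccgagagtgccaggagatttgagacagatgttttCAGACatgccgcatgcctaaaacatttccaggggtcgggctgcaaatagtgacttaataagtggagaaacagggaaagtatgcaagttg
LTBP3, chr11:65558360-65558603, minus strand: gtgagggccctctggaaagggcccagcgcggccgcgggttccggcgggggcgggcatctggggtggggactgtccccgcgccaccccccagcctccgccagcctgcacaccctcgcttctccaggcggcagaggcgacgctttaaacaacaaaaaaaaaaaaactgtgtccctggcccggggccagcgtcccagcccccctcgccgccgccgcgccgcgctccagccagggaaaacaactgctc
TGFBR2, chr3:30606106-30606355, plus strand: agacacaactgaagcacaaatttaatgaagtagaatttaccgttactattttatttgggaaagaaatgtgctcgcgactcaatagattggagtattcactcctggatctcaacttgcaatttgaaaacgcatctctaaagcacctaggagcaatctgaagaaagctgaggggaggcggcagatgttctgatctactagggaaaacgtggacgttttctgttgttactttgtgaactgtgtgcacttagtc
The search covered both strands and took in CAGAC for the SMADs, the letters GGGCGG for the GC box, and for AP-1 the letters TGANTCA. No matches of different motifs overlapped in these windows. The long-form window of LTBP1 held 2 CAGAC matches, the short-form window 1, and those of LTBP3 and TGFBR2 held 0. Among 35116 human promoter windows of 250 bases, 38.0% held CAGAC at least once. Of the windows printed, that of LTBP3 held a GC box, which 42.6% of all windows did, and none held TGANTCA, which 6.57% of all windows did. Each of the 3 genes has a further RefSeq start whose window is not printed. The windows not printed held 1 CAGAC match in LTBP1, 1 GC box in LTBP3 and 2 GC boxes in TGFBR2. Their starts lie closer to rows named here than the printed ones. They are 65558228, the first base of ENST00000301873, and 30606601, that of ENST00000359013. In LTBP1 it is 33134596, beside the first base of ENST00000418533 (33134597). A match is a description of letters and not a binding site.

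LTBP2 and LTBP4 did not pass the test. LTBP2, which binds fibrillin but, unlike its relatives, not latent TGF-beta, had 6.15, 9.57 and 7.03 CPM in irradiated cultures, against 4.01, 5.66 and 5.81 CPM in control cultures. The groups did not overlap, but the lowest irradiated and the highest control cultures were close. The log2 fold change was 0.53 ± 0.30 (SE, n = 3 each, adjusted p = 0.213). When only the most abundant row of each gene was counted, which for LTBP2 is the full-length coding row ENST00000261978, the value was 0.69 with an adjusted p of 0.0109. That row as a single feature of the transcript test was at 0.51 with an adjusted p of 0.118, and with library totals alone the gene was at 0.97 with an adjusted p of 0.0278. With the gene length offset LTBP2 was at 0.19 with an adjusted p of 0.711. LTBP4, which is needed for elastic fibre assembly, had 9.23, 5.23 and 8.44 CPM in irradiated cultures, against 7.27, 2.29 and 5.56 CPM in control cultures. The groups overlapped, and the log2 fold change was 0.64 ± 0.38 (SE, n = 3 each, adjusted p = 0.227).

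The fibrillins form the backbone of the microfibrils, FBN1 being the gene mutated in Marfan syndrome and FBN2 a form most abundant during development. FBN1 (chr15:48408306-48645849, minus strand) had 24.6, 17.8 and 16.9 CPM in irradiated cultures, against 22.1, 15.8 and 11.1 CPM in control cultures. FBN2 (chr5:128257909-128659185, minus strand) had 7.49, 4.49 and 4.35 CPM in irradiated cultures, against 5.52, 3.21 and 5.44 CPM in control cultures. Both overlapped between groups, with log2 fold changes of 0.31 ± 0.25 for FBN1 (SE, n = 3 each, adjusted p = 0.394) and 0.21 ± 0.36 for FBN2 (adjusted p = 0.697). Neither sign held in every alternative. With an offset for gene length the values were -0.06 for FBN1 and -0.13 for FBN2, and without irradiated culture 1 FBN2 was at -0.09. Of the 6 LTBP and fibrillin genes, 2 thus rose, LTBP1 and LTBP3.

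**Figure D2:**
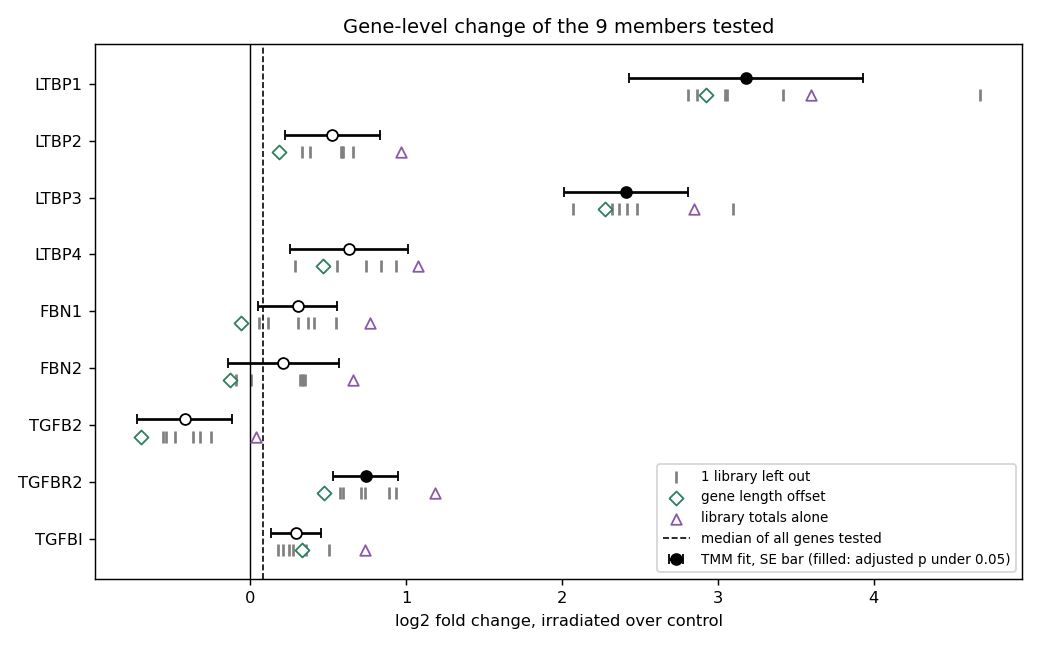
Log2 fold change of irradiated over control for the 9 members tested, with SE bars and filled circles at an adjusted p under 0.05. Below each circle are the values with 1 library left out (grey ticks), with an offset for gene length (green diamonds) and with library totals alone (violet triangles). LTBP1 and LTBP3 stay above 2 in every setting drawn, and FBN1 and FBN2 lie at -0.06 and -0.13 with the length offset.

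TGFB1, the main ligand of the immune system, was near the limit of detection. It held 6, 10 and 6 counts in irradiated and 3, 6 and 8 counts in control libraries, or 0.803, 1.496 and 0.767 CPM against 0.753, 0.918 and 0.989 CPM. It did not reach 10 counts in 3 libraries and was not tested with the other genes. Pooled counts of 22 and 17 gave an irradiated over control ratio of 1.10, with an exact 95% interval of 0.556 to 2.20. The interval covers counting error only and takes each count as a separate read. It holds ratios on both sides of 1, so these counts do not show a difference in either direction. In the annotation TGFB1 overlaps 4 other protein-coding genes, and no source used here says whether the counting used strand.

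TGFB2 was the more abundant ligand and the only member tested with a negative fold change. It had 6.29, 4.04 and 5.88 CPM in irradiated cultures, against 5.52, 7.65 and 8.28 CPM in control cultures. The groups overlapped through control culture 1, the shallowest library. The log2 fold change was -0.42 ± 0.31 (SE, n = 3 each, adjusted p = 0.330), and with library totals alone, which place the median of all genes at 0.53 in place of 0.08, it was 0.04. With the gene length offset it was -0.70 (edgeR, unadjusted p = 0.0327, adjusted p = 0.112).

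TGFB2 is made as 2 coding forms that differ by an exon within the propeptide. The exon of 84 bases, or 28 codons, is exon 2 of 8 in ENST00000366929 and is missing from ENST00000366930, which otherwise has the same exons. It is printed whole and in lower case, since all of it is the difference, from GRCh38 with GENCODE 29 exon bounds.
TGFB2 exon 2, chr1:218363334-218363417, plus strand: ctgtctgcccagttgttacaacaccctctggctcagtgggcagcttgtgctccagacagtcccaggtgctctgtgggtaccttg
The shorter form ENST00000366930 made up 48.9, 48.1 and 45.7% of TGFB2 counts in irradiated cultures, against 63.6, 56.0 and 47.8% in control cultures. The longer form ENST00000366929 made up 44.7, 44.4 and 39.1% in irradiated cultures, against 36.4, 38.0 and 41.8% in control cultures. The shares overlapped between groups for both forms, through control culture 3. Their differences of -8.22 and 4.03 percentage points had adjusted p-values of 1.00 each in the usage test, with exact permutation p-values of 0.3 and 0.2.

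TGFBR2, the ligand-binding receptor kinase, was the second most abundant member and the third that rose. It had 39.1, 30.4 and 47.0 CPM in irradiated cultures, against 22.3, 18.1 and 29.04 CPM in control cultures. The groups did not overlap, though the lowest irradiated and the highest control culture were close. TGFBR2 rose by a log2 fold change of 0.74 ± 0.21 (SE, n = 3 each, adjusted p = 0.0174), or 1.67-fold, and so was not differentially expressed by the limit of 1. The call did not hold with the gene length offset (0.47, adjusted p = 0.0979). It was also lost without irradiated culture 1 (adjusted p = 0.0513), irradiated culture 3 (adjusted p = 0.105) or control culture 2 (adjusted p = 0.0754), while the direction held in all 15 alternatives.

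TGFBR2 (chr3:30606502-30694142, plus strand) also has coding forms that differ by an exon, 75 bases or 25 codons that add a stretch to the extracellular part of the receptor. This exon 2 of 8 in ENST00000359013 is absent from ENST00000295754.
TGFBR2 exon 2, chr3:30623199-30623273, plus strand: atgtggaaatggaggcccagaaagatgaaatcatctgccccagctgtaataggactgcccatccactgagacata
The rows with and without this exon held nearly the same counts in every library. ENST00000359013 had 46, 35 and 61 counts in irradiated and 16, 21 and 37 in control libraries, and ENST00000295754 had 47, 33 and 61 counts in irradiated and 16, 21 and 40 in control libraries. Their shares of TGFBR2 counts were 16.5 ± 0.745% and 16.3 ± 0.244% in irradiated and 17.2 ± 1.24% and 17.6 ± 0.508% in control cultures (SD, n = 3 each).

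TGFBI, a secreted adhesion protein named for its induction by TGF-beta, was the most abundant member. It had 129.8, 110.4 and 125.3 CPM in irradiated cultures, against 82.5, 85.8 and 128.2 CPM in control cultures. Control culture 3 lay within the irradiated range and the other controls below it. The log2 fold change was 0.29 ± 0.16 (SE, n = 3 each, adjusted p = 0.182). Without control culture 3 it was 0.51 and passed the test (adjusted p = 0.00783), so a single library decided this call.

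Per kilobase of each gene's most abundant annotated row, TGFBI led in both groups, at 43.4 CPM per kb in irradiated and 35.2 CPM per kb in control cultures, followed by TGFBR2 at 8.40 and 5.01 CPM per kb. In irradiated cultures LTBP3 came next at 2.57 CPM per kb, then FBN1 (1.68), LTBP4 (1.52), TGFB2 (1.09), LTBP2 (0.885), FBN2 (0.507), LTBP1 (0.465) and TGFB1 (0.369). In control cultures the order after TGFBR2 was TGFB2 (1.44 CPM per kb), FBN1 (1.39), LTBP4 (1.00), LTBP2 (0.602), FBN2 (0.440), LTBP3 (0.435), TGFB1 (0.320) and LTBP1 (0.0406). LTBP3 thus stood at place 3 in irradiated and place 8 in control cultures, and by CPM not divided by length at place 4 in irradiated and place 8 in control cultures. Neighbours from FBN1 to LTBP2 and from FBN2 to TGFB1 in the irradiated order overlapped in their ranges over cultures and do not differ beyond their spread. In the control order this held for all neighbours from TGFB2 to TGFB1.

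Among the 82 rows, 46 were tested as single features, and 14 of these rose, against 8.54% of all 74843 transcripts. All 7 rows of LTBP3, 3 of 5 of LTBP1, 2 of 7 of TGFBR2 and 2 of 6 of TGFBI were among the 14. Rows of 1 gene are not separate measurements, since the 7 of LTBP3 held near-equal counts and the 3 of LTBP1 identical ones. The 14 calls are thus not 14 separate results. None of the 46 rows fell, against 10.7% of all transcripts, and 1 had a negative fold change at an unadjusted p under 0.05 in edgeR and 0 in DESeq2. The count of 14 was 5 without irradiated culture 1, 5 without control culture 1 and 6 without control culture 2. DESeq2 called none of the 25 member rows to which it gave an adjusted p, with 12 of the 46 higher at an unadjusted p under 0.05, and it gave no adjusted p to 10 of the 14 rows.

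The LTBP3 rows rose by log2 fold changes of 1.69 to 2.79. The coding row ENST00000301873 (28 exons, 4443 bases) had 13, 13 and 16 counts in irradiated and 1, 2 and 3 in control libraries, a log2 fold change of 2.45 ± 0.56 (SE, n = 3 each, adjusted p = 0.000251). The smallest adjusted p was that of the coding row ENST00000530866, with 13, 12 and 11 counts in irradiated and 0, 0 and 4 in control libraries (2.79 ± 0.64, adjusted p = 0.000247). Rows not annotated as protein-coding rose with them, namely ENST00000526825, annotated as a target of nonsense-mediated decay, at 2.07 (adjusted p = 0.00261) and ENST00000529582, with a retained intron, at 2.28 (adjusted p = 0.00349). The 5 tested LTBP3 rows whose exons could be looked up have between 7 and 28 exons, and all 7 rows tested had 8 to 16 counts in every irradiated library.

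**Figure D3:**
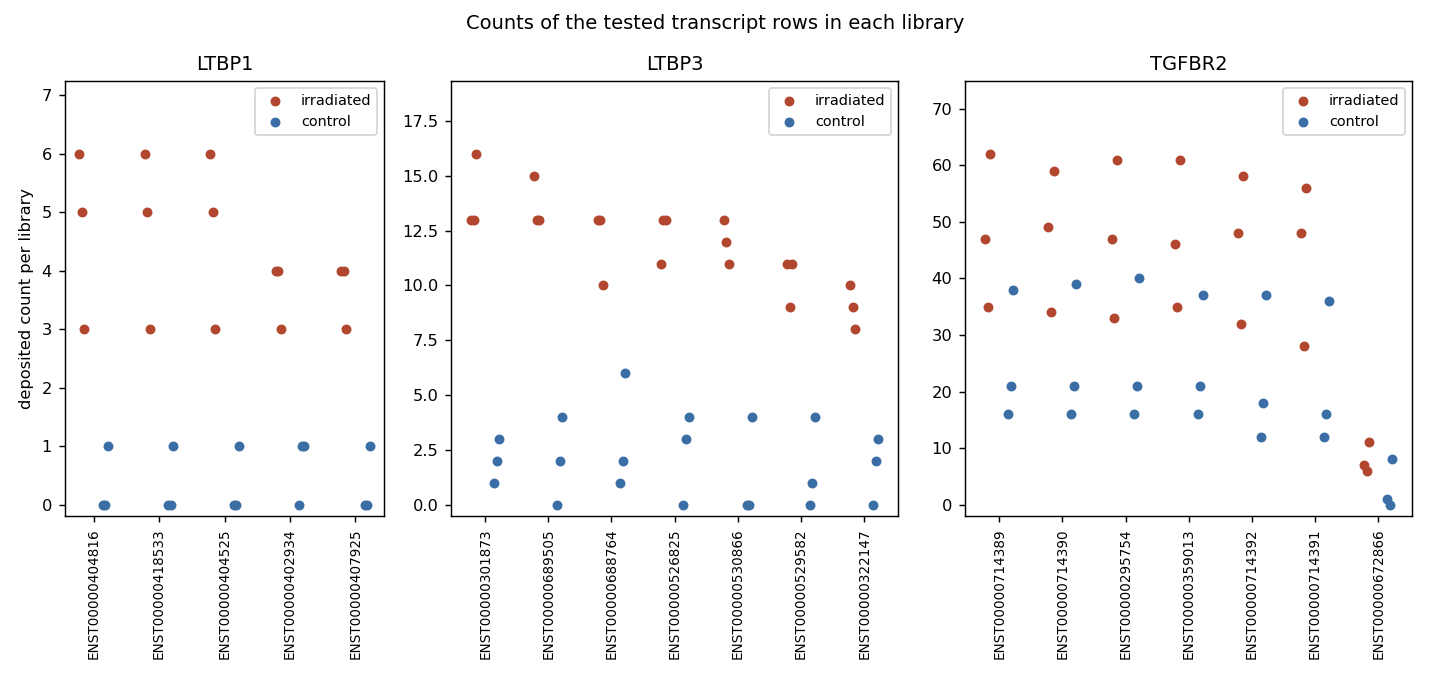
Deposited counts of each tested transcript row of LTBP1, LTBP3 and TGFBR2 in the 3 irradiated (red) and 3 control (blue) libraries, on linear axes. In LTBP3 every row has 8 to 16 counts in irradiated and 0 to 6 in control libraries, and rows of 1 gene hold near-equal counts.

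The near-equal counts recurred in most members. LTBP4's row of 699 bases with 3 exons, ENST00000598166, had 13, 7 and 12 counts in irradiated and 5, 3 and 8 in control libraries, and its row of 5032 bases with 33 exons, ENST00000204005, had 14, 7 and 14 in irradiated and 6, 3 and 9 in control libraries. No source used here says how reads shared by several rows were assigned, so a gene's sum over rows may not count each read once. The order of levels between genes carries the same limit. FBN2 and LTBP2 were exceptions, with the full-length rows ENST00000262464 at 74.8 ± 17.0% of FBN2 counts in irradiated and 80.8 ± 5.68% in control cultures (SD, n = 3 each), and ENST00000261978 at 100% of LTBP2 counts in irradiated and 97.2 ± 4.91% in control cultures.

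No member row switched its usage, against 0.41% of all transcripts. At that share, a count of 0 among 41 rows says little about the members. In most members the rows also held near-equal counts, so a switch between such rows may not have been visible. Of 41 rows with a defined difference in isoform fraction, 0 passed an adjusted p of 0.05 in edgeR's diffSpliceDGE, where the smallest was 0.273 and 1 row was under 0.05 unadjusted. In limma's diffSplice 0 passed and 0 were under 0.05 unadjusted. The largest difference was that of the LTBP3 row ENST00000688764, at 14.4 ± 1.93% of LTBP3 counts in irradiated and 29.4 ± 18.0% in control cultures (SD, n = 3 each, adjusted p = 0.847). The control libraries held 2, 12 and 32 LTBP3 counts in all, so their shares rest on few counts. For LTBP1 no difference was defined, because control culture 1 had no counts.

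In TGFBI, which has the most counts, the group means of the shares differed by under 5 percentage points. The row ENST00000442011, which spans the whole gene in 17 exons, made up 23.2, 23.7 and 22.9% of TGFBI counts in irradiated cultures, against 28.3, 31.0 and 25.1% in control cultures. ENST00000506699, also of 17 exons but annotated with a retained intron, made up 22.9 ± 0.561% in irradiated and 26.8 ± 1.93% in control cultures (SD, n = 3 each). Conversely ENST00000514554 (9 exons), ENST00000508076 (6 exons) and ENST00000504411 (3 exons), which lie in the 3′ part of the gene, had higher shares in irradiated cultures, by 3.27, 2.49 and 3.12 percentage points. Each of these 5 differences in share had an exact permutation p of 0.1, the smallest that 3 against 3 cultures can give, as did rows of FBN1, TGFBR2 and LTBP3. None of the 5 passed the usage test (adjusted p = 0.707 or more) and none reached 10 percentage points. As single features ENST00000514554 (log2 fold change 0.52 ± 0.18, adjusted p = 0.0260) and ENST00000504411 (0.49 ± 0.18, adjusted p = 0.0357) rose, while ENST00000442011 was at -0.02 ± 0.17 (adjusted p = 0.961).

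**Figure D4:**
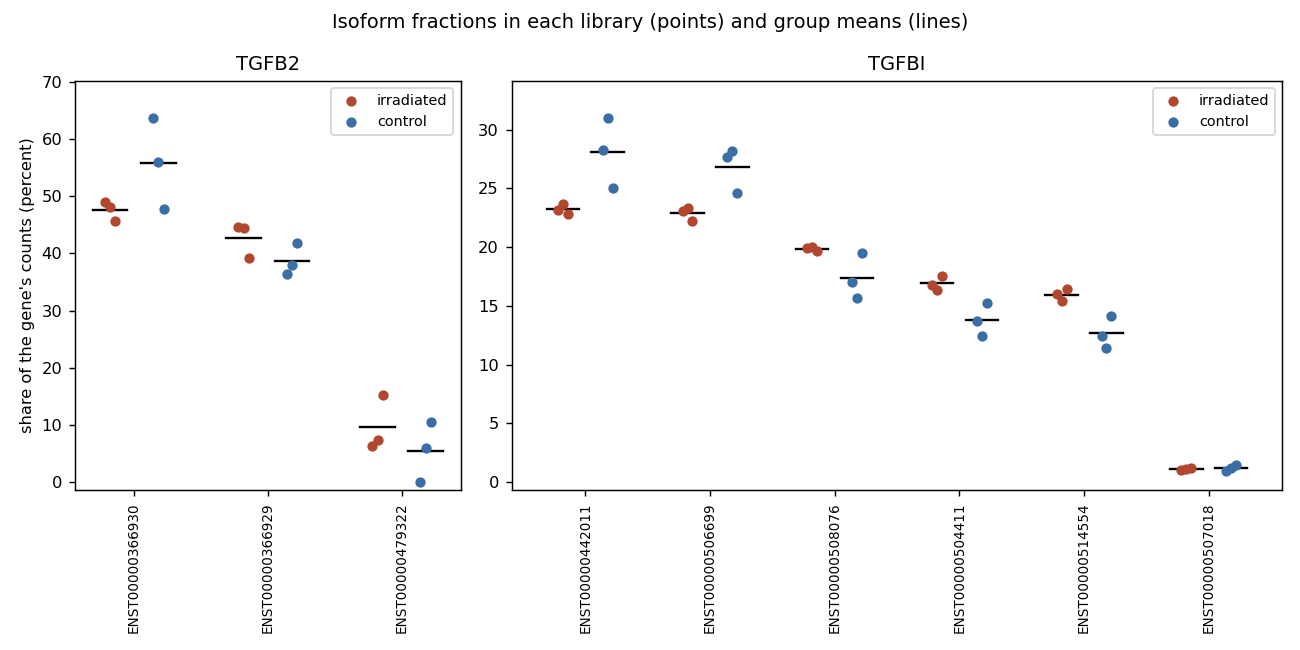
Share of each gene's counts (percent) held by the tested rows of TGFB2 and TGFBI in each irradiated (red) and control (blue) library, with group means as black lines. In TGFBI the group means of each row lie under 5 percentage points apart.

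The other genes of the pathway were taken from 4 lists. Of 18 microfibril and elastic fibre partners, 9 were tested, 4 rose and 0 fell, with a median log2 fold change of 0.69, where 11.6% of all genes tested rose and 14.1% fell. EFEMP2, the fibulin needed for collagen and elastin cross-linking, had 53.4, 37.5 and 46.3 CPM in irradiated cultures, against 35.4, 26.0 and 27.2 CPM in control cultures (log2 fold change 0.64 ± 0.18, adjusted p = 0.0169). FBLN5, which brings elastin to microfibrils, had 5.08, 1.79 and 2.81 CPM in irradiated cultures, against 1.00, 0 and 0.989 CPM in control cultures (2.29 ± 0.74, adjusted p = 0.0324). It was measured with few counts, over all its rows 42, 14 and 25 in irradiated and 5, 0 and 8 in control libraries. VCAN, a large proteoglycan that binds fibrillin, rose by 0.69 ± 0.24 (adjusted p = 0.0461). The fourth was FBLN1 (0.96 ± 0.34, adjusted p = 0.0497), named after its values were seen. Its groups overlapped, and elastin itself had no counts in any library.

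Of 16 genes that process or activate latent TGF-beta, 8 were tested, 0 rose and 1 fell (11.6% and 14.1% of all genes tested), with a median log2 fold change of 0.13. The gene that fell was THBS1, thrombospondin 1, a matrix protein that can activate latent TGF-beta, with 47.0, 38.3 and 52.7 CPM in irradiated cultures, against 66.0, 63.6 and 72.4 CPM in control cultures (-0.55 ± 0.15, adjusted p = 0.0151). FURIN, the protease that cleaves the propeptide, was at 0.63 ± 0.24 (adjusted p = 0.0660) and the integrin chain ITGB5 at 0.39 ± 0.24 (adjusted p = 0.241).

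Of 22 receptors, SMADs and modulators, 16 were tested, 4 rose and 0 fell (11.6% and 14.1% of all genes tested), with a median log2 fold change of 0.62. TGFBR1, the partner kinase of TGFBR2, had 39.6, 31.7 and 38.1 CPM in irradiated cultures, against 26.3, 15.0 and 16.6 CPM in control cultures (0.95 ± 0.21, adjusted p = 0.00493). SMAD3, which carries the signal to the nucleus, had 74.0, 70.7 and 73.5 CPM in irradiated cultures, against 39.1, 37.8 and 57.2 CPM in control cultures (0.69 ± 0.16, adjusted p = 0.00661). Both receptor kinases thus rose in the main test. The TGFBR2 call did not hold with the gene length offset (adjusted p = 0.0979), nor without irradiated culture 1, irradiated culture 3 or control culture 2. For TGFBR1 and SMAD3 every irradiated culture was above every control culture, as for 21.5% of all genes. The co-receptor ENG rose by 0.85 ± 0.22 (adjusted p = 0.0114), and the SMAD inhibitor SKIL, named after its values were seen, was the fourth (0.68 ± 0.20, adjusted p = 0.0212).

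Of 18 genes known as TGF-beta targets, 13 were tested, 4 rose and 3 fell, with a median log2 fold change of 0.25. ACTA2, smooth muscle actin, had 17.9, 16.3 and 10.6 CPM in irradiated cultures, against 4.77, 4.74 and 3.46 CPM in control cultures (1.80 ± 0.29, adjusted p = 0.00081). COL1A2, a chain of type I collagen, had 8.56, 6.88 and 8.69 CPM in irradiated cultures, against 2.26, 3.52 and 3.46 CPM in control cultures (1.35 ± 0.32, adjusted p = 0.00636). TIMP1, an inhibitor of matrix proteases, fell, with 186.9, 215.5 and 180.5 CPM in irradiated cultures, against 281.2, 291.7 and 242.3 CPM in control cultures (-0.48 ± 0.12, adjusted p = 0.00906). Named after their values were seen, SKIL and COL4A1 also rose, and THBS1 and SNAI2 also fell. Some targets far more abundant than ACTA2 and COL1A2, named likewise, passed no test. COL1A1 was at 0.12 (adjusted p = 0.515) and FN1 at 0.25 (adjusted p = 0.172). TAGLN was at -0.16 (adjusted p = 0.308) and TPM1 at -0.27 (adjusted p = 0.0873). The targets thus moved in both directions. Over the 4 lists together 11 genes rose and 3 fell, each gene counted once, beside 11.6% and 14.1% of all genes tested. The count of 11 was 5 without irradiated culture 1, 7 without irradiated culture 3, 5 without control culture 2 and 7 with the gene length offset.

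**Figure D5:**
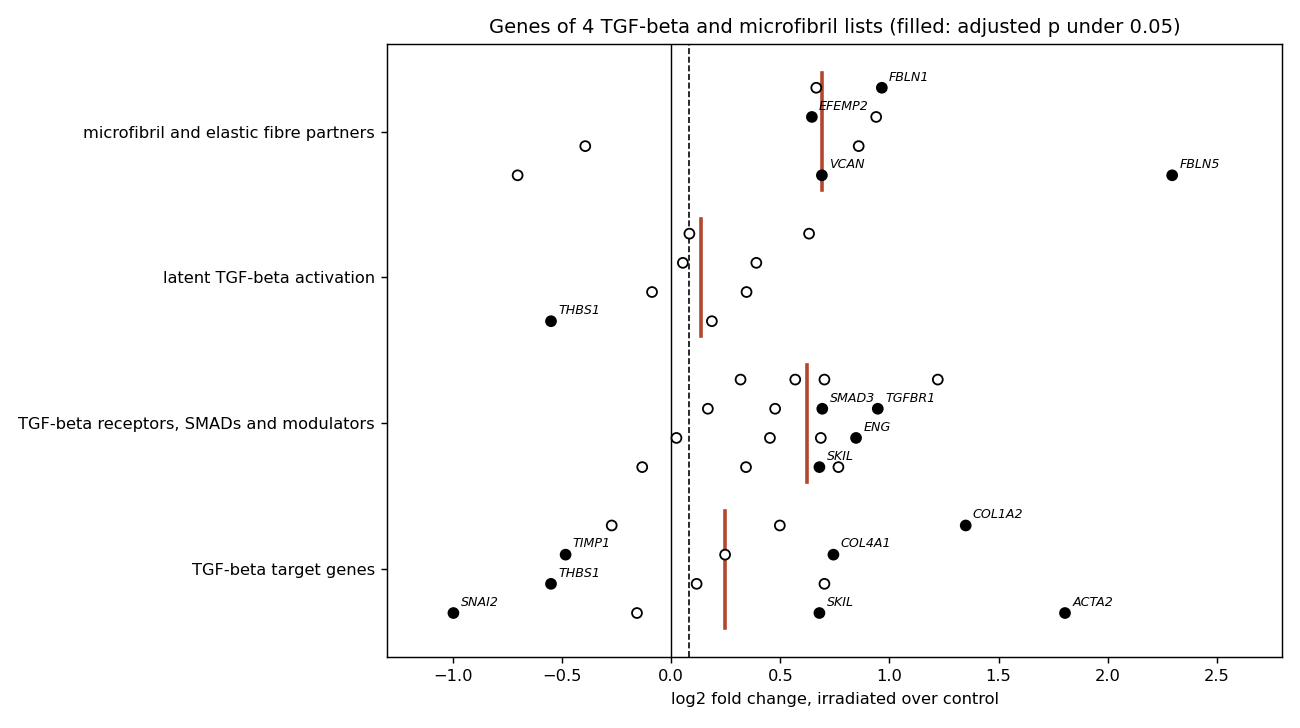
Log2 fold change of irradiated over control for the tested genes of 4 lists, filled where the adjusted p was under 0.05 and then named. Red bars are list medians (0.69, 0.13, 0.62 and 0.25 from top to bottom) and the dashed line is the median of all genes tested, 0.08.

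For the 3 members with a mean of at least 10 CPM, the gene with the most similar profile over the 6 libraries was sought among 6170 others of at least 10 CPM. The nearest to TGFBR2 was NCOA6 (Pearson r of log2 CPM 0.995), to TGFBI NCKIPSD (0.998) and to FBN1 ZFP64 (0.972). With 6 libraries such values are common, since 152 genes had an r over 0.95 with TGFBR2 and 70 with TGFBI, against 2 with FBN1. These are descriptions over points that share library depth and group.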

How the data were processed

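Counts per transcript of 6 HMC3 libraries, 3 irradiated and 3 control, were used. The authors aligned reads to GRCh38 with minimap2 and quantified transcripts with Salmon, and the deposited values are estimated counts, already whole numbers. Not given in the sources used here were tool versions, the annotation release, the strand handling and any collapsing of reads by molecular identifiers. Exon bounds and lengths are from GENCODE 29, which holds 61 of the 82 member rows, and promoter windows are from RefSeq.

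The study states a filter for its transcript usage analysis, which was applied here to the gene and transcript tests too and leaves out genes with fewer than 2 kept transcripts. Genes needed 10 counts in at least 3 libraries, transcripts 3 counts in at least 1 library, and genes at least 2 such transcripts, which kept 95.6 to 96.4% of the counts of each library. Library totals were 4870897 to 9082409 counts, so a gene at 1 CPM rests on a few counts. Gene counts are sums of kept rows. The quasi-likelihood test of edgeR 4.0.16 (TMM factors, robust glmQLFit, glmQLFTest, under R 4.3.3) was run on genes and on transcripts, each adjusted by Benjamini-Hochberg over the whole table. The study used DESeq2, here version 1.42.0 and an alternative. SEs were derived as the size of the log2 fold change over the root of its F statistic. Usage was tested with diffSpliceDGE, a switch needing an adjusted p under 0.05 and a difference in isoform fraction of 10 percentage points, and with diffSplice of limma 3.58.1. Marker sums use all rows, and the values of some genes on the marker lists are not reported here. Intervals of pooled ratios are exact at 95% and, like the floor of 3 counts, cover counting error only. The intervals take each count as a separate read, which sums over rows may not hold. Scripts were tested on simulated counts.

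The members and the lists were chosen with earlier results of these data known. All members are named, and of each list the 3 genes with the smallest adjusted p. Of transcripts, each member's most abundant row and the rows that passed the transcript test (the 12 with the smallest adjusted p) could be named. Other rows and genes were named after their values were seen. The alternatives were other scaling, filters and tools, the replicate number as a block, a gene length offset, each library left out, and, added after seeing the data, the most abundant row of each gene only. Plots were made with Python 3.11.15 and matplotlib 3.10.9.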

Additional observations from a re-analysis of the deposited data

How the results depend on the processing

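LTBP1 and LTBP3 kept their calls and LTBP2, LTBP4 and TGFBR2 their direction in all 15 alternatives at gene level. With library totals alone, which raise the median of all genes by 0.45 on the log2 scale, TGFB2 was at 0.039, members called higher were 6 in place of 3 (FBN1, LTBP2 and TGFBI were added), genes called higher in the 4 pathway lists were 29 in place of 11, those called lower 0 in place of 3, and member rows called higher 27 in place of 14. Over all genes 3643 were then called higher and 356 lower, in place of 1292 and 1567. With the gene length offset FBN1 was at -0.0599, FBN2 at -0.131 and TGFB2 at -0.697, and list genes called higher were 7. Member rows called higher were 7 with no filter on low counts and 0 with DESeq2. With only the most abundant row of each gene, list genes called lower were 6. By CPM not divided by length, 5 of the 10 members kept their place in the irradiated order of levels. Leaving out 1 library at a time, FBN2 ran from -0.089 to 0.355, list genes called higher from 5 to 15 and member rows called higher from 5 to 20. The number of genes called over the whole table fell to 694 higher and 977 lower without irradiated culture 1. The cause of these changes was not tested.

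The replicate numbers were not taken to pair the cultures, since deviations of same-numbered cultures correlated at -0.03, 0.27 and 0.10 over 6171 genes. With the replicate block, 3 members and 14 member rows were called higher and 0 lower, and list genes numbered 13 higher and 4 lower. With the block and the length offset together, FBN1 was at -0.0421, FBN2 at -0.170, TGFB2 at -0.699 and list genes called higher were 7. Depth limits TGFB1, LTBP1 and the single rows most, TGFB1 holding at most 10 and LTBP1 at most 26 counts in a library.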
